A study of Homo sapiens with 38 samples.

Results

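Gradient_9_10 and Gradient_6_7 are pools of density-gradient fractions from medium conditioned by DiFi cells, a human colorectal cancer line, grown in 3D in hollow-fibre bioreactors. The comparison holds the 4 libraries of 9_10 and the 4 libraries of 6_7, each lettered A to D, chosen by their labelled sample type alone, which makes 8 of the study's 38 small RNA libraries. Both pools share every labelled step: medium pools of about 400 mL were cleared of debris, 60 mL aliquots were spun at 10000 g, concentrated to 30 mL, layered over 2 mL of dense iodixanol (60%), spun at 100000 g for 4 h and separated on a density gradient. The RNA of both was treated with AlkB, an enzyme that strips methyl groups that block reverse transcription, before small RNA libraries were made and size-selected. The labels list small vesicles, heavy vesicles and non-vesicular material as products of the gradient and do not say which fraction numbers hold which, so the pools keep their numbers here. DiFi is a single line, each library is cell-free material pooled from many cells, and the letters are not tied to medium pools, so a p-value here speaks of the spread between libraries, which may be technical.

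Cells shed RNA both inside membrane vesicles and in protein particles without a membrane, and a density gradient parts such carriers by how they float. The small RNAs found outside cells come from several families with separate jobs: miRNAs guide Argonaute proteins to messenger RNAs, tRNAs carry amino acids and are often cut at the anticodon when released, and Y RNAs bind the Ro60 protein. Vault RNAs sit in the vault particle, the U snRNAs build the spliceosome, 7SL RNA is the scaffold of the signal recognition particle, and 7SK RNA holds the transcription factor P-TEFb in reserve. Endogenous retroviruses (ERVs) are old viral insertions whose long terminal repeats are scattered through the genome and lie within many introns and long noncoding RNAs (lncRNAs).

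The miRNAs described most closely are shown with the seed, bases 2 to 8, in capitals (RefSeq, GRCh38.p14), because members of a family are grouped by it. The let-7 members share one seed, and so do miR-19a and miR-19b; miR-423-5p and miR-1246 have seeds of their own.
hsa-let-7a-5p: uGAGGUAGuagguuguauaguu
hsa-let-7b-5p: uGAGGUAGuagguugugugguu
hsa-let-7d-5p: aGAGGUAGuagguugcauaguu
hsa-let-7e-5p: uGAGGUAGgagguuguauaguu
hsa-let-7f-5p: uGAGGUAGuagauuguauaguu
hsa-miR-19a-3p: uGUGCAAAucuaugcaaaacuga
hsa-miR-19b-3p: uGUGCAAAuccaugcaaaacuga
hsa-miR-423-5p: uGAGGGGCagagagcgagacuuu
hsa-miR-1246: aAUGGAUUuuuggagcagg

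The 4 tRNAs described most closely among those that rose within the tRNA class are shown as DNA letters of the first gene copy in the deposited table, with the anticodon in capitals (GRCh38). They lie at chr1:93847573-93847657 (+) for Arg-TCT, whose printed letters skip an intron, chr10:67764503-67764584 (+) for Ser-TGA, chr17:8138881-8138962 (-) for Ser-CGA and chr17:8187160-8187233 (+) for Thr-AGT.
tRNA-Arg-TCT: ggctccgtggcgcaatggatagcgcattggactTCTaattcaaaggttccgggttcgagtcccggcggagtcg
tRNA-Ser-TGA: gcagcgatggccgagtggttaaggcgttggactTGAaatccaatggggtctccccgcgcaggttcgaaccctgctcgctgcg
tRNA-Ser-CGA: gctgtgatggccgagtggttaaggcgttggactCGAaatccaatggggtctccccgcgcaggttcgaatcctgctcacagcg
tRNA-Thr-AGT: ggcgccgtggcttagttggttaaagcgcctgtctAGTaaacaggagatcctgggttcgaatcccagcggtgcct

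RNY4 and 3 of its pseudogene copies are shown because the balance between them differed between the pools. The capitals mark letters of a copy that differ from RNY4 in a global alignment (GENCODE v29 gene sequence, GRCh38; RNY4 at chr7:148963315-148963410 (+), RNY4P10 at chr6:33199601-33199696 (+), RNY4P7 at chr2:127798903-127798998 (-) and RNY4P20 at chr6:151298841-151298933 (-)). The first 30 letters of each copy match RNY4 in full, and 24, 26 and 26 of the last 30 match in RNY4P10, RNY4P7 and RNY4P20, so reads from the 5′ end cannot tell the 4 apart by sequence.
RNY4: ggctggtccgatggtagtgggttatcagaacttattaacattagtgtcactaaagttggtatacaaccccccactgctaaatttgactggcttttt
RNY4P10: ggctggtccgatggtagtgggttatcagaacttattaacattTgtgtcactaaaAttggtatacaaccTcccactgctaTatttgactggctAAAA
RNY4P7: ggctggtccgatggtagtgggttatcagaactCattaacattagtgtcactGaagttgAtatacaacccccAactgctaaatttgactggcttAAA
RNY4P20: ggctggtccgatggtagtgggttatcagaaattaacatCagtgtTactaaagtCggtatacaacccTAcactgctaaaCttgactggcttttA

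Among the snRNAs and vault RNAs, the U1 pseudogene RNU1-75P and the vault RNA gene VTRNA1-1 carried large differences. RNU1-75P (chr1:119331397-119331525, -) is shown beside the U1 gene RNU1-1 (chr1:16514122-16514285, -), with the letters that differ from RNU1-1 in capitals; over the alignment 65.9% of positions were identical. VTRNA1-1 lies at chr5:140711275-140711373 (+) and is shown in lower case throughout (GENCODE v29, GRCh38).
RNU1-1: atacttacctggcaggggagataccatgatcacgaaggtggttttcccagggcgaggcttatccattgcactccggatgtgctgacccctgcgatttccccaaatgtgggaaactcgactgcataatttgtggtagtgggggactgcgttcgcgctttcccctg
RNU1-75P: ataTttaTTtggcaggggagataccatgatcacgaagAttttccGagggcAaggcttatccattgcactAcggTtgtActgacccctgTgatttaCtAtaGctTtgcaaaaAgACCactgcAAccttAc
VTRNA1-1: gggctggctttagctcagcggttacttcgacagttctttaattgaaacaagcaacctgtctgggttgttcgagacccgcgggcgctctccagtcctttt

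The 9_10 libraries were shallow. Their totals were 490374, 112383, 81079 and 185733 counts in A to D, against 940808, 1891999, 1288383 and 3860718 counts in A to D of 6_7. A single count is therefore worth 2.04 to 12.3 CPM (counts scaled to a library total of 1e6) in 9_10 and 0.259 to 1.06 CPM in 6_7, and no total of 9_10 reaches the lowest of 6_7. All 8 colorectal epithelial marker miRNAs on a fixed list had counts in both pools, summing to 64800 to 154800 CPM in 9_10 and 66660 to 149000 CPM in 6_7. Of 7 blood cell markers 4 were at 0 in 9_10, and all 7 together summed to 652 to 1637 CPM in 9_10 and 436 to 964 CPM in 6_7. Libraries of 9_10 were also less alike: over 643 features, correlations of log2 CPM ran from 0.799 to 0.899 within 9_10, from 0.928 to 0.986 within 6_7 and from 0.635 to 0.816 between the pools. Library A of 9_10 and library B of 6_7 stood apart from their group in several measures.

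The pools differed in which RNA classes filled them. Shares of ERV RNA, lncRNA, snRNA and snoRNA were higher in every 9_10 library than in any 6_7 library, while the shares of miRNA and tRNA overlapped. ERV RNA took 2.63, 3.82, 0.932 and 0.795% of the counts in A to D of 9_10, against 0.0344, 0.0310, 0.0429 and 0.0294% in 6_7. The means, 2.04 ± 1.45% and 0.0344 ± 0.00605% (SD, n = 4 each), stand 59.4-fold apart, and the lowest 9_10 library lies far above the highest of 6_7. snRNA took 8.42, 3.38, 5.14 and 1.497% in 9_10 and 0.646, 1.41, 0.534 and 0.530% in 6_7, and lncRNA 5.85, 8.14, 2.28 and 2.22% in 9_10 and 1.24, 0.523, 1.39 and 1.33% in 6_7. snoRNA, which guides the modification of other RNAs, averaged 0.304 ± 0.125% in 9_10 and 0.0970 ± 0.0138% in 6_7 (SD, n = 4 each).

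For each of these 4 classes a two-sided exact permutation test gave p = 0.0286, the smallest that 4 against 4 libraries allow over 70 assignments. Adjusted over the 10 classes this is 0.0714, so none passes 0.05 with all 8 libraries; without library A of 9_10, 7 classes passed. Y RNA took 2.93, 10.9, 16.3 and 14.7% of the counts in 9_10 and 4.04, 1.52, 4.36 and 4.55% in 6_7. Library A of 9_10 thus sits inside the 6_7 range and B to D lie above it (exact permutation p = 0.114, adjusted p = 0.143). The miscellaneous class, which holds the vault, 7SL and 7SK RNAs, took 0.225, 0.636, 3.39 and 15.0% in 9_10 and 0.222, 0.101, 0.228 and 0.217% in 6_7 (exact permutation p = 0.0571, adjusted p = 0.0952).

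rRNA ran the other way in its means, with 12.0, 5.39, 4.80 and 6.15% in 9_10 and 7.92, 55.9, 26.3 and 13.4% in 6_7. The groups overlap, and library B of 6_7 alone is mostly rRNA (exact permutation p = 0.0571, adjusted p = 0.0952). miRNA took 44.3 ± 4.39% in 9_10 and 45.1 ± 13.9% in 6_7 (SD, n = 4 each), and tRNA took 20.9 ± 6.18% in 9_10 and 23.1 ± 9.04% in 6_7 (exact permutation p = 0.886 and 0.714). Mitochondrial tRNA remained a trace in both, at 0.0514 ± 0.0280% in 9_10 and 0.0163 ± 0.00849% in 6_7 (SD, n = 4 each), with overlapping ranges.

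**Figure D1:**
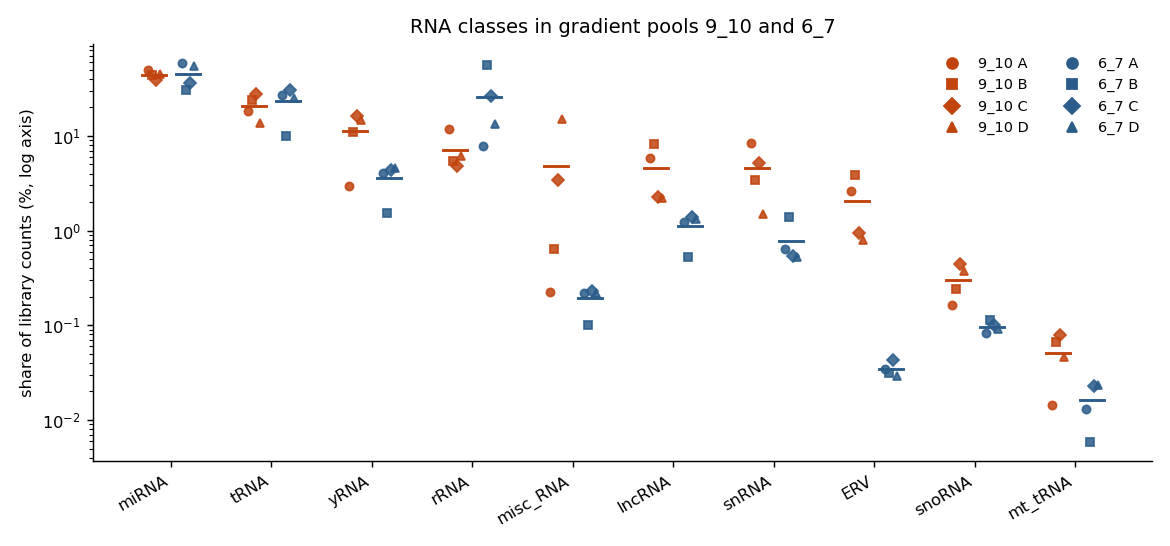
Share of each RNA class in the total count of every library (percent, log axis), with 9_10 left of 6_7; points are libraries and bars are means. The ERV, lncRNA, snRNA and snoRNA points of the pools do not overlap, and the ERV means are 2.04% in 9_10 and 0.0344% in 6_7.

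Despite fewer counts, the 9_10 libraries spread them over more features. Thinned to 80948 counts each, 3299, 3816, 2125 and 1748 features would be detected in A to D of 9_10, against 802, 664, 765 and 786 in 6_7. No 9_10 library falls to the 6_7 range, and the means are 2747 ± 972 in 9_10 and 754 ± 61.8 in 6_7 (SD, n = 4 each; exact permutation p = 0.0286, the smallest possible, and 0.0571 adjusted over 4 measures of composition). The number of features needed to hold 90% of the counts was 165, 358, 114 and 77 in 9_10 and 63, 33, 50 and 59 in 6_7. At that depth 229 to 487 ERV families would be detected in a 9_10 library and 18.8 to 26.3 in a 6_7 library, and 775 to 2572 lncRNAs in 9_10 and 78.0 to 107 in 6_7. Detected snRNAs numbered 82.3 to 126 in 9_10 and 53.5 to 79.6 in 6_7, snoRNAs 56.4 to 108 in 9_10 and 42.0 to 50.5 in 6_7, and miscellaneous RNAs 60.3 to 191 in 9_10 and 27.0 to 46.1 in 6_7, also without overlap. miRNA ranges overlapped, with 242 to 293 in 9_10 and 238 to 304 in 6_7.

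**Figure D2:**
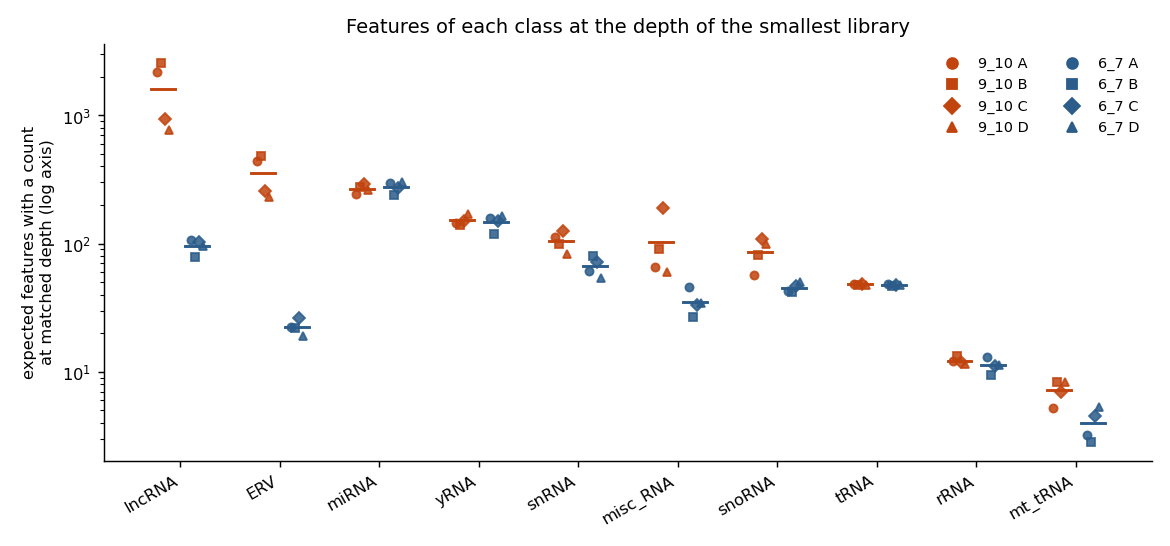
Number of features expected with at least 1 count per library at 80948 counts (log axis), by RNA class, with 9_10 left of 6_7; each point is 1 library. The ERV points lie at 229 to 487 in 9_10 and 18.8 to 26.3 in 6_7, and the miRNA points lie at 242 to 293 in 9_10 and 238 to 304 in 6_7.

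Single features were tested with edgeR's quasi-likelihood test in 1 fit of all 38 libraries, scaled by TMM, which assumes that most features do not differ. Of 7009 features tested, 983 (14.0%) passed an adjusted p of 0.05, with 498 (7.11%) higher and 485 (6.92%) lower in 9_10, and the median log2 fold change over all tested features was 3.35. Scaled to library totals instead, 3575 (51.0%) passed, with 3560 (50.8%) higher and 15 (0.214%) lower, and the median was 5.89, while RLE size factors gave 2820 (40.2%). CPM ranges of the pools did not overlap for 506 features (7.22%) that were higher and 81 (1.16%) that were lower in 9_10. Leaving out 1 library at a time, TMM gave 424 calls, without D of 6_7, to 1885, without D of 9_10. All 498 features called higher under TMM were also called higher by library totals, but of the 485 called lower only 15 were, so the lower calls under TMM turn on the scaling. A second test therefore compared each feature with the summed count of its own class, using the 12 gradient libraries. Of 6346 features 1588 (25.0%) passed, 1383 (21.8%) higher and 205 (3.23%) lower. The lncRNAs, 4183 of those tested, held 1271 of the higher calls and 29 of the lower ones. The 21.8% is thus mostly theirs, and other classes had lower rates of higher calls or fewer members. In what follows a feature is said to have risen or fallen only where TMM and library totals both call it in that direction, or where the test within its class does, which is then named.

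Among ERV entries, each of which sums the many genomic copies of a repeat family, 157 of 743 tested rose and 0 fell under TMM, against 7.11% higher among all features tested. By library totals 578 were called higher and 0 lower, against 50.8% and 0.214% of all features. TMM called 60, 93 and 96 ERV entries higher without D, C and A of 6_7, 88 without A of 9_10, and 286 and 353 without B and D of 9_10. THE1B, a long terminal repeat family of the MaLR group, had 732, 1158, 310 and 147 CPM in A to D of 9_10 and 3.19, 6.82, 4.66 and 6.66 CPM in 6_7. Its lowest 9_10 library stands well above the highest of 6_7 (TMM log2 fold change 3.40, SE 0.89, edgeR adjusted p = 0.00476). MSTA, of the same group, had 695, 990, 216 and 260 CPM in 9_10 and 5.31, 9.14, 6.21 and 4.84 CPM in 6_7 (3.16, SE 0.88, edgeR adjusted p = 0.00747). Over the MaLR list of MLT1, MST and THE1 families, 31 of 53 rose under TMM and 50 of 53 were called higher by library totals, with 0 lower; the TMM count was 17 without D of 6_7 and 20 without A of 9_10.

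The MER families, a mixed set of medium reiterated repeats, showed 47 of 201 higher and 0 lower under TMM and 163 higher by library totals. Of all features 7.11% were called higher under TMM and 50.8% by library totals. The TMM count was 16 without D of 6_7, 28 and 29 without C of 6_7 and A of 9_10, 31 without A of 6_7, and 81 and 100 without B and D of 9_10. MER39 had 102, 102, 61.7 and 43.1 CPM in A to D of 9_10 and 0 counts in all 4 libraries of 6_7. Against a floor of 3 counts over the whole of 6_7, or 0.376 CPM, this is at least 228-fold higher. MER68 stood at least 229-fold higher by the same measure, but B had 409 CPM and the other 3 libraries of 9_10 had 10.8 to 53.0 CPM, and the bound was 102-fold without B. MER31B and LTR16B1 were likewise at 0 counts in 6_7 and at least 200-fold and 136-fold higher in 9_10. Without D of 6_7, which holds the most counts and so sets the floor, the bounds for MER39, MER31B and LTR16B1 were 118-fold, 104-fold and 70.3-fold.

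Of internal HERV regions, the parts that once coded for viral proteins, 13 of 102 rose under TMM and 71 were called higher by library totals, with 0 lower. Of all features 7.11% were called higher under TMM and 50.8% by library totals. The TMM count for these regions was 3 without D of 6_7, 7 without A or C of 6_7, 6 without A of 9_10, and 30 and 45 without B and D of 9_10. Counts in all 4 libraries of a pool were found for 149 of 1021 ERV families in 9_10 and 26 of 1021 in 6_7. Relative to the ERV class as a whole 11 of 711 families rose and 17 fell, against 21.8% and 3.23% of all features in that test. HERVH_LTR7Y, an HERV-H element chosen after its values were seen because it led the ERV class in every 6_7 library, had 19.0, 70.3, 30.8 and 26.4 CPM in 9_10 and 30.9, 13.8, 31.9 and 32.1 CPM in 6_7. Its CPM ranges overlap, and within the class it fell (log2 fold change -5.33, SE 0.97, edgeR adjusted p = 1.02e-05).

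In the lncRNA class a long tail of low-count transcripts was added in 9_10 while the leading entries took less. ENSG00000286171, 156 bases at chr7:148941483-148941638 (+), took 5.40 to 27.0% of lncRNA counts in 9_10 and 53.9 to 70.2% in 6_7. In RefSeq (GRCh38.p14) this interval contains RNY5, 1 of the 4 human Y RNA genes, at 148941488 to 148941571, and the deposited table has no RNY5 entry among its Y RNAs, so reads of the pair cannot be told apart here. Its level was 3159, 6380, 3823 and 5966 CPM in 9_10 and 7896, 2814, 8428 and 9310 CPM in 6_7. EPCAM-DT, a divergent transcript beside the epithelial adhesion gene EPCAM, had 852, 819, 728 and 813 CPM in 9_10 and 2611, 1233, 3600 and 2190 CPM in 6_7. All 9_10 libraries lie below all of 6_7 for EPCAM-DT, and both entries fell within the class (log2 fold changes -2.13, SE 0.45, and -3.24, SE 0.53; edgeR adjusted p = 0.000222 and 3.26e-07).

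With those 2 entries set aside, the other lncRNAs took 5.45, 7.42, 1.83 and 1.55% of all counts in 9_10, against 0.193, 0.118, 0.184 and 0.176% in 6_7. The groups do not overlap, and the means were 4.06 ± 2.86% in 9_10 and 0.168 ± 0.0340% in 6_7 (SD, n = 4 each; exact permutation p = 0.0286, the smallest possible). Of 4756 lncRNAs tested 312 rose under TMM and 36 were called lower, where 7.11% and 6.92% of all features tested were. By library totals 2805 were called higher and 1 lower, where 50.8% and 0.214% of all features were. TMM called 47, 107, 122 and 172 lncRNAs higher without D, C, A and B of 6_7, 114 without A of 9_10, and 848 and 1188 without B and D of 9_10. ELDR, a noncoding transcript just downstream of the EGFR gene, had 363, 658, 111 and 124 CPM in 9_10 and 2.13, 1.59, 3.88 and 0 CPM in 6_7. Every 9_10 library lies far above every 6_7 library, and ELDR rose (TMM log2 fold change 4.36, SE 1.01, edgeR adjusted p = 0.00118).

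LMCD1-AS1, an antisense transcript of the LMCD1 region, had 71.4, 80.1, 61.7 and 16.2 CPM in 9_10 and 0 counts in 6_7, at least 159-fold higher. LINC02343, ENSG00000225689 and ENSG00000285280, long transcripts with no assigned role, were also at 0 in 6_7 and at least 141-fold, 199-fold and 150-fold higher, the third of them 94.9-fold without B of 9_10; without D of 6_7 the bounds for all 4 ran from 72.7-fold to 103-fold. NORAD, which sequesters Pumilio proteins in the cytoplasm, went the other way, with 12.2, 0, 30.8 and 10.8 CPM in 9_10 and 74.4, 39.1, 75.8 and 90.8 CPM in 6_7. Every 9_10 library lies below every 6_7 library, though the 9_10 values rest on a handful of counts, and NORAD fell within the class (log2 fold change -4.41, SE 0.96, edgeR adjusted p = 0.000362). Of NORAD, MALAT1 and NEAT1, all abundant lncRNAs, 2 of 3 fell within the class and 0 rose. Of 18 snoRNA host transcripts, which carry snoRNAs in their introns, 3 fell and 0 rose within the class, against 3.23% lower and 21.8% higher over all features in that test. By library totals 5 of the 18 were called higher and 0 lower, against 50.8% and 0.214% of all features.

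Few miRNAs changed their share of the miRNA class. Within the class 14 of 486 rose and 16 fell, against 21.8% and 3.23% of all features in that test, and the median log2 fold change was -0.21; leaving out 1 library at a time gave 6 to 15 higher and 1 to 13 lower. By library totals 8 of 505 were called higher and 8 lower, whereas TMM called 214 lower and 0 higher. Of all features 50.8% were called higher and 0.214% lower by library totals, and 7.11% and 6.92% under TMM. miR-21-5p, an oncogenic miRNA abundant in colorectal cancer, took 9.86 to 22.3% of miRNA counts in 9_10 and 12.2 to 14.2% in 6_7. The 9 members of the miR-200 family, which keep cells epithelial by repressing ZEB factors, held 8.08 to 16.8% of miRNA counts in 9_10 and 13.03 to 15.9% in 6_7, and 0 of 9 passed within the class, with a median log2 fold change of -0.26. Of 16 intestinal epithelial miRNAs, the list of miR-192, miR-194, miR-215 and their like, 0 rose and 0 fell within the class.

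The let-7 family, which restrains growth genes such as RAS, took less of the miRNA counts in 9_10. The family with miR-98 held 3.58, 6.50, 7.16 and 6.70% of miRNA counts in A to D of 9_10 and 12.7, 9.05, 12.5 and 12.8% in 6_7. No 9_10 library reaches the lowest of 6_7. Of 17 members tested within the class 6 fell and 0 rose, against the same 3.23% lower and 21.8% higher. All 9 5p arms, which carry the shared seed, had negative log2 fold changes, and 2 of 8 3p arms did. Leaving out 1 library at a time gave 0 to 4 calls, with 0 without C or D of 6_7.

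let-7a-5p had 3692, 5555, 6499 and 7229 CPM in 9_10 and 20661, 7417, 12494 and 19754 CPM in 6_7. All 9_10 libraries lie below all of 6_7, and the fall within the class was -1.30 (SE 0.42, edgeR adjusted p = 0.0168), lost without A, C or D of 6_7. let-7b-5p had 721, 1406, 1939 and 2555 CPM in 9_10 and 6705, 2085, 5098 and 6334 CPM in 6_7. Library D of 9_10 lies above B of 6_7, the library rich in rRNA, and the fall within the class was -1.52 (SE 0.46, edgeR adjusted p = 0.0122), lost without C or D of 6_7. let-7e-5p had 24.5, 29.4, 40.7 and 34.996 CPM in 9_10 and 173, 61.7, 104 and 163 CPM in 6_7, again without overlap (-2.03 within the class, SE 0.76, edgeR adjusted p = 0.0398, kept only without B of 6_7). let-7f-5p and let-7d-5p fell by 1.06 and 1.28 on the log2 scale within the class (let-7d-5p was chosen after its values were seen), and let-7g-5p had -0.42 and did not pass (edgeR adjusted p = 0.0432, 0.0479 and 0.402). The let-7f-5p call was lost without any one of the 8 libraries, and the let-7d-5p call without any one except C of 9_10.

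miR-423-5p, whose seed is rich in G, had 131, 71.2, 98.7 and 296 CPM in 9_10 and 968, 329, 775 and 993 CPM in 6_7. The groups do not overlap, and it fell under TMM, by library totals and within the class (within-class log2 fold change -2.30, SE 0.56, edgeR adjusted p = 0.0018), without exception when 1 library was left out. In the other direction miR-19b-3p, a member of the oncogenic miR-17-92 cluster, had 514, 1593, 1924 and 1610 CPM in 9_10 and 544, 231, 262 and 533 CPM in 6_7. Library A of 9_10 lies inside the 6_7 range and the other 3 lie above it, and within the class miR-19b-3p rose (log2 fold change 1.96, SE 0.53, edgeR adjusted p = 0.00468). miR-19a-3p, chosen after its values were seen because it shares that seed, rose by 1.79 within the class (SE 0.59, edgeR adjusted p = 0.0204), a call lost without B or C of 9_10 or without any library of 6_7. These were 2 of 19 members of the cluster and its paralogs that rose within the class, and 0 fell. Of all 486 miRNAs 14 rose in that test, and of all features 21.8% did. Without A of 9_10, 4 members of the cluster list rose.

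miR-210-3p, the miRNA induced by hypoxia, had 30.6, 196, 345 and 258 CPM in 9_10 and 80.8, 29.6, 60.5 and 53.1 CPM in 6_7. It rose within the class (log2 fold change 1.95, SE 0.67, edgeR adjusted p = 0.026), with A of 9_10 again inside the 6_7 range and the call lost without C of 9_10 or any library of 6_7. miR-1246, whose entry matches U2 snRNA sequence in part, set library A of 9_10 apart: 242782 CPM there, against 25280, 16601 and 35766 CPM in B to D of 9_10 and 35872, 71873, 21040 and 17785 CPM in 6_7. In A it was 49.1% of all miRNA counts, and miRNA without it was 25.1, 41.1, 37.2 and 41.9% of the total in A to D of 9_10 and 55.4, 23.2, 34.3 and 53.1% in 6_7. miR-1246 did not pass within the class (log2 fold change 0.79, SE 0.88, edgeR adjusted p = 0.491). Of the other lists, 1 of 12 in the miR-10, miR-99, miR-100 and miR-125 group rose, 1 of 11 in the miR-23, miR-24 and miR-27 group fell and 1 of 6 in the miR-320 and miR-484 group fell within the class. Over all features 21.8% rose and 3.23% fell in that test. The member that rose, miR-100-5p, had 28.5, 0, 0 and 64.6 CPM in A to D of 9_10 and 1.06, 0, 5.05 and 2.46 CPM in 6_7. Its call, on 26 counts in 9_10 and 17 in 6_7, was lost without D of 9_10 or D of 6_7. None of 15 miR-29 and miR-30 members, 4 miR-221 and miR-222 members, 7 blood cell, endothelial and liver miRNAs or 3 mesenchymal and muscle miRNAs passed within the class.

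**Figure D3:**
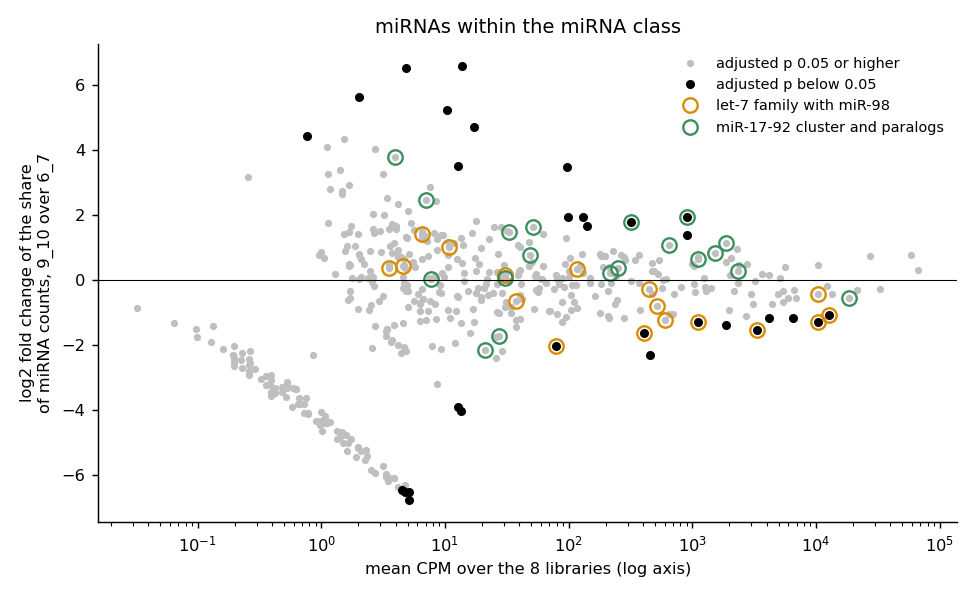
Each tested miRNA with counts in the 8 libraries, by its mean CPM over them (horizontal axis, log scale). The vertical axis is its log2 fold change within the miRNA class, 9_10 over 6_7. The let-7 5p arms all lie below 0, and miR-19b-3p stands at 1.96 and miR-423-5p at -2.30; features with 0 counts in 9_10 form the lower diagonal edge, and their fitted folds have no firm size.

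The tRNA class, which overlapped in its share of the total, was filled differently. The tRNAs known for releasing 5′ fragments cut at the anticodon, such as Gly-GCC and Glu-CTC, held 69.1, 71.6, 59.4 and 83.6% of tRNA counts in 9_10 and 88.5, 84.9, 92.9 and 92.3% in 6_7. The remaining nuclear tRNAs held 30.9, 28.4, 40.6 and 16.4% in 9_10 and 11.5, 15.1, 7.14 and 7.75% in 6_7, with no overlap between the pools. Of 40 such tRNAs 18 rose and 0 fell within the class, against 21.8% and 3.23% over all features; leaving out 1 library at a time left 14 to 19. By library totals 14 of the 40 were called higher and 0 lower, against 50.8% and 0.214% of all features. Under TMM 2 were called higher and 8 lower, against 7.11% and 6.92%. Of the 9 tRNAs on that list 1 rose and 1 fell within the class.

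tRNA-Arg-TCT had 854, 6169, 11750 and 1423 CPM in 9_10 and 278, 134, 127 and 95.2 CPM in 6_7. tRNA-Ser-TGA had 1090, 6638, 13302 and 1104 CPM in 9_10 and 315, 165, 180 and 249 CPM in 6_7. Every 9_10 library exceeds every 6_7 library for both, with B and C of 9_10 far above A and D. Within the class they rose by log2 fold changes of 4.72 (SE 0.54, edgeR adjusted p = 6.5e-15) and 4.35 (SE 0.52, edgeR adjusted p = 2.48e-13). tRNA-Ser-CGA and tRNA-Thr-AGT, both chosen after their values were seen, rose likewise by 5.24 (SE 0.65) and 4.18 (SE 0.55), with edgeR adjusted p = 8.31e-13 and 3.72e-11.

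tRNA-Lys-TTT had 10668, 22309, 34418 and 8552 CPM in 9_10 and 10001, 5325, 5066 and 5569 CPM in 6_7. Library D of 9_10 lies below A of 6_7, and within the class it rose by 1.39 (SE 0.41, edgeR adjusted p = 0.0097), lost without C or D of 6_7. tRNA-Glu-CTC, the second most abundant tRNA of 6_7, had 26881, 18940, 11761 and 16776 CPM in 9_10 and 62399, 20281, 77369 and 65064 CPM in 6_7. It fell within the class (log2 fold change -1.28, SE 0.38, edgeR adjusted p = 0.00953, lost without C of 9_10 or D of 6_7). tRNA-Gly-GCC, the most abundant, took 32.0 ± 6.21% of tRNA counts in 9_10 and 40.4 ± 2.88% in 6_7 (SD, n = 4 each) and did not pass within the class (log2 fold change -0.33, edgeR adjusted p = 0.441).

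By amino acid, the ranges of 12 of 22 tRNA groups did not overlap between the pools. Serine tRNAs took 1.12, 5.16, 8.44 and 1.80% of tRNA counts in 9_10 and 0.344, 0.445, 0.211 and 0.322% in 6_7, and arginine tRNAs 1.53, 2.99, 4.598 and 1.37% in 9_10 and 0.337, 0.370, 0.159 and 0.193% in 6_7. Threonine averaged 1.76 ± 1.05% in 9_10 and 0.155 ± 0.0466% in 6_7, leucine 1.62 ± 1.28% and 0.320 ± 0.0854%, and lysine 13.6 ± 5.87% and 5.21 ± 1.68% (SD, n = 4 each). Glutamate alone among the 12 was lower in 9_10, at 19.6, 12.2, 9.45 and 16.7% in 9_10 and 26.2, 23.1, 28.1 and 29.1% in 6_7. Each of the 12 has the smallest exact permutation p possible, 0.0286, which is 0.0524 when adjusted over the 22 groups, so none passes. The tRNA entries sum several near-identical genes whose reads the deposited values divide in a way that is not stated, so single entries are uncertain.

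**Figure D4:**
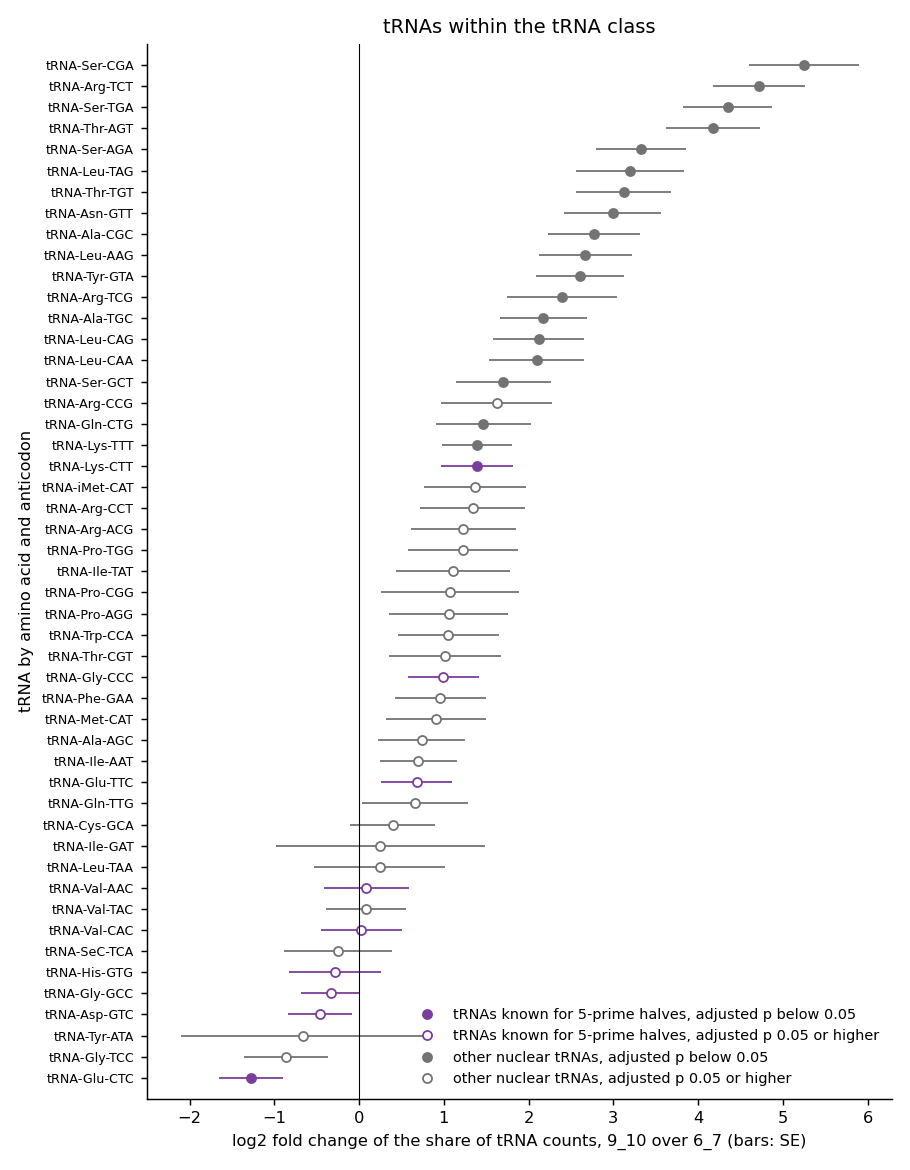
Log2 fold change of each tRNA within the tRNA class, 9_10 over 6_7, with error bars of 1 SE, ordered by size. Arg-TCT stands at 4.72, Ser-TGA at 4.35 and Glu-CTC at -1.28.

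Y RNA, high in B to D of 9_10, was also made up differently. RNY4 had 4473, 16173, 25996 and 22858 CPM in 9_10 and 7724, 3132, 9490 and 9859 CPM in 6_7. RNY1 had 4561, 28350, 33152 and 35964 CPM in 9_10 and 5134, 1970, 6532 and 6115 CPM in 6_7. In both genes A of 9_10 lies inside the 6_7 range and B to D lie above it. Neither passed within the class (log2 fold changes -0.43 and 0.67, edgeR adjusted p = 0.381 and 0.168). RNY3 had 123, 174, 244 and 306 CPM in 9_10 and 378, 136, 508 and 455 CPM in 6_7, and within the class it fell (log2 fold change -2.08, SE 0.61, edgeR adjusted p = 0.00902).

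Ratios to RNY4 within a library, given as a description, set the pools apart for each of 5 entries. RNY4P7 stood at 0.445, 0.914, 0.955 and 0.921 of RNY4 in 9_10 and at 0.198 to 0.235 in 6_7, and RNY4P10 at 0.599, 0.968, 0.986 and 0.955 in 9_10 and 0.534 to 0.569 in 6_7. RNY4P20 stood at 0.199 to 0.365 in 9_10 and 0.0229 to 0.0276 in 6_7. RNY1 stood at 1.02 to 1.75 in 9_10 and 0.620 to 0.688 in 6_7, and RNY3 at 0.00939 to 0.0276 in 9_10 and 0.0434 to 0.0535 in 6_7. In B to D of 9_10 the 2 copies RNY4P10 and RNY4P7 thus carried nearly as many counts as RNY4 itself, whose first 30 letters they share, while A lay between those libraries and 6_7.

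RNY4P20 had 1029, 3527, 5165 and 8332 CPM in 9_10 and 180, 86.6, 229 and 226 CPM in 6_7 with no overlap, and rose (TMM log2 fold change 2.27, SE 0.68, edgeR adjusted p = 0.014, lost without A of 6_7; within the class 2.93, SE 0.50, edgeR adjusted p = 1.65e-06). RNY4P7 rose by 1.49 within the class (SE 0.43, edgeR adjusted p = 0.00748, lost without D of 6_7). Of 270 Y RNA pseudogene copies 21 rose and 54 fell within the class, against 21.8% higher and 3.23% lower over all features; the counts ran from 3 to 25 higher and from 11 to 80 lower when 1 library was left out, with 80 lower without A of 9_10. By library totals 36 of 274 such copies were called higher and 1 lower, against 50.8% and 0.214% of all features. The copy Y_RNA ENSG00000199409 had 4.08, 0, 0 and 0 CPM in 9_10 and 237, 60.3, 27.2 and 34.7 CPM in 6_7. Its pooled level in 9_10 was 0.0363 of that in 6_7 (exact 95% counting interval 0.00438 to 0.132), and both scalings called it lower (TMM log2 fold change -8.36, SE 1.40, edgeR adjusted p = 2.06e-06). Without A of 6_7, its highest library, the pooled ratio was 0.0572, and without A of 9_10, which held both counts, it was at most 0.125 by the floor of 3 counts. Y_RNA ENSG00000200615 had 824, 324, 236 and 745 CPM in 9_10 and 1828, 646, 1787 and 2113 CPM in 6_7 and fell within the class (-2.22, SE 0.52, edgeR adjusted p = 0.00111).

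**Figure D5:**
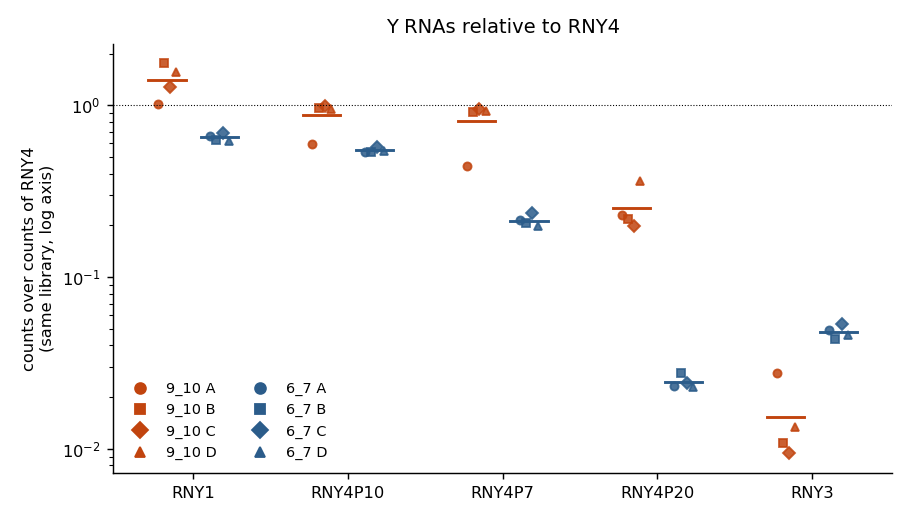
Counts of Y RNA entries as a ratio to RNY4 in the same library (log axis), with 9_10 left of 6_7; each point is 1 library. The RNY4P7 points lie at 0.445 to 0.955 in 9_10 and at 0.198 to 0.235 in 6_7, and the RNY3 points at 0.00939 to 0.0276 in 9_10 and 0.0434 to 0.0535 in 6_7.

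Vault RNAs reached 14.9% of all counts in a single library. Together they took 0.0406, 0.222, 2.35 and 14.9% of the counts in A to D of 9_10, against 0.0711, 0.0365, 0.0862 and 0.0935% in 6_7. Library A lies inside the 6_7 range, B to D lie above it, and D is the highest (exact permutation p = 0.114). VTRNA1-1 had 302, 1882, 16987 and 117999 CPM in 9_10 and 425, 218, 508 and 568 CPM in 6_7 and rose (TMM log2 fold change 4.31, SE 0.81, edgeR adjusted p = 8.04e-05), a call kept without each library in turn. VTRNA1-2 had 74.0, 267, 5030 and 25708 CPM in 9_10 and 144, 60.7, 143 and 181 CPM in 6_7, and its call was lost without D of 9_10 or any library of 6_7 (3.86, SE 1.29, edgeR adjusted p = 0.0438). Of 4 vault entries tested 3 rose and 0 fell under TMM, where 7.11% of all features were called higher, and 1 was called higher without D of 9_10. Relative to the miscellaneous class VTRNA1-3 fell (log2 fold change -2.64, SE 0.56, edgeR adjusted p = 0.000276), with 29.2, 22.2, 454 and 1739 CPM in 9_10 and 111, 65.8, 177 and 150 CPM in 6_7. By library totals VTRNA1-3 was instead called higher (log2 fold change 2.16, edgeR adjusted p = 0.0172), and under TMM it did not pass (0.09). All 4 vault entries tested were called higher by library totals, where 50.8% of all features were.

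With the vault RNAs set aside, the miscellaneous class took 0.184, 0.415, 1.04 and 0.150% of the counts in 9_10 and 0.151, 0.0645, 0.142 and 0.123% in 6_7, with D of 9_10 inside the 6_7 range. The 7SL genes were low in 9_10. RN7SL2 had 118, 98.8, 90.04 and 118 CPM in 9_10 and 531, 212, 687 and 504 CPM in 6_7. RN7SL1 had 58.5, 72.1, 28.4 and 33.4 CPM in 9_10 and 198, 92.6, 238 and 228 CPM in 6_7. Both fell without overlap under TMM, by library totals and within the class (TMM log2 fold changes -4.82, SE 0.91, and -4.89, SE 0.96; edgeR adjusted p = 5.58e-05 and 9.42e-05). Of 61 7SL genes and copies 5 rose and 19 fell within the class, against 21.8% and 3.23% of all features. In that test 34 fell without A of 9_10, and 13, 9 and 8 without B, C and D of 9_10 and 11, 13 and 8 without A, C and D of 6_7. By library totals 7 of 62 were called higher and 2 lower, against 50.8% and 0.214% of all features.

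Single copies of 7SL and 7SK RNA were high in 9_10. RN7SL145P, a 7SL pseudogene, had 55.1, 427, 1295 and 37.7 CPM in 9_10 and 2.13, 3.70, 0 and 0 CPM in 6_7. RN7SKP232, a 7SK pseudogene, had 97.9, 1184, 3762 and 285 CPM in 9_10 and 10.6, 2.64, 3.10 and 6.99 CPM in 6_7. Every 9_10 library exceeds every 6_7 library for both, and C of 9_10 is the highest (TMM log2 fold changes 5.23, SE 1.17, and 5.15, SE 1.00; edgeR adjusted p = 0.00071 and 9.37e-05), with the RN7SL145P call lost without C of 9_10. Of 23 7SK entries 4 rose and 3 fell within the class, where 21.8% and 3.23% of all features did.

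The snRNA share was higher in every 9_10 library, and its members were divided within the class, where 21.8% of all features rose and 3.23% fell. By library totals 61 of 274 snRNAs were called higher and 0 lower, against 50.8% and 0.214% of all features. RNU5E-1, a gene for the U5 RNA at the core of the spliceosome, had 12408, 3535, 2430 and 1373 CPM in 9_10 and 89.0, 103, 41.7 and 71.2 CPM in 6_7. Every 9_10 library exceeds every 6_7 library, with A the highest (TMM log2 fold change 2.82, SE 0.76, edgeR adjusted p = 0.0061, lost without A of 9_10; within the class 3.20, SE 0.50, edgeR adjusted p = 6.75e-08). Of 39 U4 and U5 entries 12 rose and 0 fell within the class, against that 21.8% and 3.23%, and 10 rose and 0 fell under TMM, against 7.11% higher and 6.92% lower of all features; the within-class count was 10 to 12 when 1 library was left out. They held 17.98, 32.0, 25.5 and 16.5% of snRNA counts in 9_10 and 5.24, 2.22, 5.52 and 5.83% in 6_7, with no overlap.

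U2 entries, which pair with the branch point of introns, held 76.4, 36.9, 25.9 and 48.2% of snRNA counts in 9_10 and 73.3, 63.05, 58.1 and 73.3% in 6_7. Within the class 6 of 42 rose and 0 fell. Of all 264 snRNAs 25 rose and 54 fell in that test, and of all features 21.8% rose and 3.23% fell. Without A of 9_10, 13 U2 entries rose and 2 fell, and without any other library 1 to 3 rose and 0 fell. The U2 gene RNU2-1 had 2489, 4912, 6480 and 3950 CPM in 9_10 and 318, 1101, 584 and 336 CPM in 6_7. Its groups do not overlap, and it did not pass within the class (log2 fold change 0.91, SE 0.43, edgeR adjusted p = 0.0857). RNU2-2P, a second expressed U2 locus, had 29488 CPM in A of 9_10 and 1716, 389 and 249 CPM in B to D, against 2085, 3448, 1090 and 1677 CPM in 6_7.

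U1 entries, which recognise the 5′ splice site, showed 3 of 61 higher and 36 lower within the class, against 21.8% and 3.23% of all features. The lower count was 13 without A of 9_10 and 12 without B of 6_7. By library totals 6 of 63 U1 entries were called higher and 0 lower, against 50.8% and 0.214% of all features. RNU1-1 had 149, 285, 298 and 235 CPM in 9_10 and 194, 712, 335 and 196 CPM in 6_7, overlapping in level, and it fell within the class (log2 fold change -2.54, SE 0.58, edgeR adjusted p = 0.000737). RNU1-75P, a U1 pseudogene, had 267, 3123, 7203 and 540 CPM in 9_10 and 17.01, 15.5, 3.10 and 3.42 CPM in 6_7. Every 9_10 library exceeds every 6_7 library, and RNU1-75P rose and kept its call without each library in turn (TMM log2 fold change 5.19, SE 0.96, edgeR adjusted p = 2.95e-05).

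Of 87 U6 entries, copies of the RNA at the catalytic centre, 2 rose and 16 fell within the class, with the same 21.8% and 3.23% over all features. When 1 library was left out 1 to 16 fell, with 1 without A, B or C of 9_10 and without C or D of 6_7. By library totals 4 of 92 U6 entries were called higher and 0 lower, against 50.8% and 0.214% of all features. The U6 pseudogene RNU6-1277P (chr14:37827798-37827904, -) had 67.3, 961, 5883 and 463 CPM in 9_10 and 2.13, 0, 0 and 0 CPM in 6_7. With 704 counts in 9_10, most of them in C, and 2 counts in 6_7, both in A, its pooled CPM was 3231-fold higher in 9_10 (exact 95% counting interval 891 to 26730). That ratio was 1149 without C of 9_10 (314 to 9545), 7062 without A of 9_10 and 1668 without D of 6_7, and at least 1900 without A of 6_7. As in RNU1-75P, RN7SKP232, RN7SL145P and the serine and arginine tRNAs, B and C of 9_10 are its highest libraries. Of 15 minor spliceosome entries 0 rose and 1 fell within the class, against 21.8% and 3.23%.

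The most abundant rRNA entry in every library was 28S rRNA, the large RNA of the ribosome. It had 99712, 34898, 31734 and 45549 CPM in 9_10 and 51753, 546756, 232488 and 107550 CPM in 6_7. Library A of 9_10 lies above A of 6_7, and 28S rRNA fell both under TMM (log2 fold change -5.34, SE 0.71, edgeR adjusted p = 2.41e-10) and by library totals (-2.14, edgeR adjusted p = 0.00208). 28S rRNA was 64.8 to 83.4% of rRNA counts in 9_10 and 65.4 to 97.9% in 6_7. Within the class it did not pass (log2 fold change -0.20, SE 0.31, edgeR adjusted p = 0.612). The 5S and 5.8S genes, summed over their copies, were at 3427 to 4374 and 2912 to 4259 CPM in 9_10 and at 1986 to 4645 and 1807 to 4562 CPM in 6_7. Relative to the class both rose (log2 fold changes 1.27, SE 0.45, and 1.43, SE 0.45; edgeR adjusted p = 0.0301 and 0.0152), calls lost without B or C of 9_10 or without B, C or D of 6_7. These were among 3 of 15 cytosolic rRNA entries that rose within the class, with 0 lower, against 21.8% and 3.23% of all features, and neither of the 2 mitochondrial rRNAs passed.

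The snoRNA class was higher in share in every 9_10 library, and few of its members passed within the class. Of 149 C/D box snoRNAs, which guide methylation, 5 rose and 7 fell within the class, and of 87 H/ACA box snoRNAs, which guide pseudouridylation, 3 rose and 1 fell, against 21.8% and 3.23% over all features; the C/D counts ran from 0 to 5 and from 1 to 5 when 1 library was left out. SNORA62, listed as ENSG00000202363, had 40.8, 160, 382 and 108 CPM in 9_10 and 8.50, 1.32, 0 and 4.14 CPM in 6_7. Every 9_10 library exceeds every 6_7 library, and within the class it rose (log2 fold change 3.81, SE 0.80, edgeR adjusted p = 0.00024). SNORD33 had 122, 601, 1357 and 565 CPM in 9_10 and 45.7, 346, 69.9 and 54.1 CPM in 6_7 and did not pass within the class (0.68, SE 0.50, edgeR adjusted p = 0.256). Of the 3 small Cajal body RNAs tested 0 passed. Mitochondrial tRNA counts were too few for the test within a class; under TMM 1 of 21 was called higher and 2 lower, against 7.11% and 6.92% of all features. mt-TS1, the tRNA for serine read from the light strand, had 0, 89.0, 296 and 16.2 CPM in 9_10 and 0, 0.529, 0.776 and 0 CPM in 6_7, with 37 counts in 9_10 against 2 in 6_7 and a call lost without C of 9_10.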

How the data were processed

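Small RNA of 38 libraries of released material was measured; 8 gradient libraries are compared here. The deposited values are expected counts per feature, which the authors left unscaled; 6.71% of them are not whole (tolerance 1e-06), and they were rounded before the tests. The submitters' processing notes name cutadapt 4.5, FastQC 0.12.1, Bowtie 1.3.1 and GRCh38.p13; the counting tool, its annotation, the use of strand and any use of molecular identifiers are not given in the sources used here. Reads shared among copies (Y RNA, snRNA, 7SL and 7SK pseudogenes, tRNA genes, repeat families) and overlapping or antisense genes are therefore uncertain as single entries, and intervals and bounds cover counting error only. The labels name no sequencing batch.

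RNA classes are those of the deposited feature names. Shares and CPM rest on library totals and were compared by two-sided exact permutation tests over libraries, adjusted by Benjamini-Hochberg. The feature tests used the robust quasi-likelihood functions of edgeR 4.0.16 (R 4.3.3; filterByExpr with a minimum count of 10; TMM; 11 group means; 27 residual degrees of freedom; common biological coefficient of variation 1.11), adjusted over all features tested. TMM factors ran from 2.42 to 8.48 in 9_10 and from 0.372 to 0.842 in 6_7. The test within classes used the class total as library size in the 12 gradient libraries, for classes with at least 100 counts in each of the 8 libraries. Standard errors (SE) of fold changes were taken as the absolute log2 fold change over the root of F. Fitted values of features with 0 counts in a pool have no firm size, and medians and counts over lists include such features. The main feature test was also run on simulated counts in which most features did not differ by design. That run therefore does not speak to the scaling of these data.

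The text draws its named features from set rules and does not name every feature that meets them. Of the features that passed with at least 50 CPM in the higher pool and no overlap of ranges, the rules take the 10 furthest up and the 10 furthest down (1 per family). They also take up to 4 members of each list that passed, the 3 most abundant features of each class and a fixed set. Features left out include miR-125b-5p, miR-10b-5p, miR-92a-3p, miR-200c-3p, miR-192-5p, miR-194-5p, miR-122-5p and miR-451a of the fixed set. Among the most abundant, miR-200b-3p and tRNA-Asp-GTC were left out. Features named from outside the rules are stated as such. The comparison, lists and members were chosen with earlier results of these data known. The letters are not tied to medium pools, and same-letter libraries gave mixed correlations of their deviations, so letters were not used as pairs.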

Additional observations from a re-analysis of the deposited data

Results flagged for a closer look

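In 170 groups of 4 libraries, 21 held a library whose gap to its neighbour exceeded Dixon's 95% critical share of the group's range. For independent, normal values chance flags about 1 group in 20. These groups share libraries, and a library is flagged by construction where the others are at 0, so that rate is no yardstick here. Library B of 6_7, the one richest in rRNA, accounts for 9. Its share of lncRNA was 0.523% (others 1.24 to 1.39%), of miscellaneous RNA 0.101% (others 0.217 to 0.228%), of Y RNA 1.52% (others 4.04 to 4.55%) and of snRNA 1.41% (others 0.530 to 0.646%). It was also apart in 18S rRNA at 7947 CPM (others 18292 to 20318), 5S rRNA genes at 1986 CPM (others 4211 to 4645), HERVH_LTR7Y at 13.8 CPM (others 30.9 to 32.1), SNORD33 at 346 CPM (others 45.7 to 69.9) and MSTC, a MaLR repeat family, at 0.264 CPM (others 0).

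In 9_10, library A was apart in miR-1246 at 242782 CPM (others 16601 to 35766), RNU2-2P at 29488 CPM (others 249 to 1716) and Y_RNA ENSG00000199409 at 4.08 CPM (others 0). Library B was apart in MER68 at 409 CPM (others 10.8 to 53.0) and ENSG00000285280 at 196 CPM (others 21.5 to 40.8). Library C was apart in RNU6-1277P at 5883 CPM (others 67.3 to 961), and library D in VTRNA1-1 at 117999 CPM (others 302 to 16987).

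In 6_7, library A was apart in RNU6-1277P at 2.13 CPM (others 0), Y_RNA ENSG00000199409 at 237 CPM (others 27.2 to 60.3), tRNA-Lys-TTT at 10001 CPM (others 5066 to 5569) and tRNA-Ser-CGA at 33.1 CPM (others 18.6 to 20.5). Library C was apart in MLT1D, another MaLR family, at 0.776 CPM (others 5.31 to 5.81).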

How the results depend on the processing

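The number of features that passed moved most with scaling and with single libraries. Against 983 in the main test, library totals gave 3575 and RLE size factors 2820 (2694 higher and 126 lower), while no filter gave 882 and leaving out the near-empty supermere library of the study gave 747. A mean of at least 10 counts gave 319 of 643 tested, the 12 gradient libraries alone 371 of 875, the same with library totals, an alternative chosen after seeing the data, 377, the 8 libraries alone 324 of 612 and DESeq2 on the 12 gradient libraries 535; fewer features were tested in each. Leaving out 1 library at a time gave 424, without D of 6_7, to 1885, without D of 9_10, with 446 without A of 9_10 and 622 and 652 without C and A of 6_7.

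Within classes, the 8 libraries alone gave 1396 against 1588, TMM among miRNAs alone 42 of 486 (14 higher and 28 lower), and leaving out 1 library 327, without D of 6_7, to 1446, without D of 9_10. The cause of these shifts was not tested. With the replicate letter as a block, 356 features passed in the 12 gradient libraries (332 higher and 24 lower) and 356 within classes (275 higher and 81 lower). Same-letter libraries correlated at 0.0398, 0.227, -0.0441 and 0.329 (A to D) in their deviations from the pool means. Libraries of different letters ran from -0.274 to 0.177, below the values of B and D. So few values cannot decide whether the letters pair the samples. Paired by letter, class shares cannot fall below p = 0.125 in the exact test, and 0 classes passed.

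For class shares 0 of the 9 remaining classes passed with rRNA left out. On the log2 scale and without each library in turn 0 of 10 passed, except without A of 9_10, when 7 passed. In the composition of the pools, the gap in features detected at 80948 counts was 1993, and ran from 1636 to 2326 without single libraries and 1934 without rRNA. Of the 485 features lower under TMM, 54 had a positive fold change by library totals. Pooled folds of features with few counts were also taken without each library in turn, an alternative chosen after seeing the data. Depth limits the 9_10 values: in its shallowest library a feature below 12.3 CPM has less than 1 count.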
